A study of Mus musculus with 11 samples.

Results

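The miR-506 family region of the mouse X chromosome was examined in small RNA libraries of cultured spermatogonial progenitor cells (SPCs). The list of members held 19 hairpin names, chosen by name from the region near Fmr1 (mir-201, mir-463, mir-465a, mir-465b, mir-465c, mir-470, mir-471, mir-509, mir-547, mir-741, mir-742, mir-743a, mir-743b, mir-871, mir-878, mir-880, mir-881, mir-883a and mir-883b), and every mature form of these hairpins was taken. This gave 34 of the 1096 mature miRNAs in the deposited values, from 18 of the 19 hairpins, with 16 forms from the 5p arm and 18 from the 3p arm. Values for mir-509 were not analysed here, and mir-880 and mir-881 were listed with a 3p form only.

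The miR-506 family is a group of X-linked miRNAs that spread by repeated duplication in placental mammals, changes fast between species and is transcribed mostly in the testis. A miRNA hairpin is cut by Drosha and Dicer into a 5p and a 3p strand, one of which usually persists in an Argonaute protein, and the seed (bases 2 to 8 of the mature strand) pairs with target transcripts. MOV10 is an RNA helicase that associates with Argonaute complexes.

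The control library came from SPCs with the genotype label Mov10 Vector, and the knockdown library from SPCs labelled Mov10 knockdown. In the study, SPCs were transduced with a lentivirus for an shRNA against Mov10 or with a control lentivirus (shVector). The methods name shMov10-832 for the RNA-seq libraries, and the shRNA of the small RNA knockdown library is not named separately. Both labels give testis of the C57BL/6 strain at post natal day 6, whereas the methods name Thy1-positive cells of B6;129S-Gt(Rosa)26Sor/J pups aged 6 to 8 days. All cells were grown on STO feeder cells, a mouse embryonic fibroblast line whose division had been blocked. Each group had 1 library, so no value has a replicate error and the difference between groups has no replicate check. The study's methods mention triplicate samples, and whether these were pooled is not stated. These libraries hold no Mov10 mRNA value, so the level of the targeted gene was not analysed here. The control library held 9628835 miRNA reads and the knockdown library 2794593. A read was worth 0.0951 TPM (reads per 1000000 reads of the library's own total) in control and 0.313 TPM in knockdown SPCs.

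Members of the region made up a large share of all miRNA reads in control SPCs and a smaller one in Mov10 knockdown SPCs. In the control library, 1987785 reads fell on members, which is 20.6% of all miRNA reads (95% Wilson interval 20.62 to 20.67%). In the knockdown library, 354743 reads fell on members, which is 12.7% (12.65 to 12.73%). The summed level was 188984 TPM in control and 111053 TPM in knockdown SPCs, a log2 ratio of -0.77 (95% exact interval -0.77 to -0.76), or 1.70-fold lower. Without molecular identifiers on the reads, the intervals and detection floors given here cover counting error only. Some other forms were far higher in the knockdown library. A list of 9 forms above 100 TPM in the knockdown library and raised over 4-fold, chosen after their values were seen, summed to 2873 TPM in control and 17597 TPM in knockdown SPCs. Most of this was miR-5099 (2369 and 12042 TPM). In the knockdown library it was followed by miR-6538 (77.8 TPM in control and 1207 TPM in knockdown SPCs) and miR-5126 (44.6 and 1168 TPM). With these 9 forms left out of the miRNA reads, members held 20.7% in control and 13.0% in knockdown SPCs. Which RNAs these reads came from was not examined, and whether they go with RNA quality or with the lower member share was not tested. In bulk libraries of this kind, fewer cells of a type and less RNA per cell cannot be told apart.

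Of the 34 mature forms, 32 were above 1.5 TPM in the higher library. Among these, 27 were reduced over 1.5-fold in the knockdown, against 41.5% of all miRNAs above that level (252 of 607), and 0 were raised over 1.5-fold, against 15.8% (96 of 607). The 27 include miR-465a-3p, miR-465b-3p and miR-465c-3p, which are 1 sequence. With identical sequences summed, 25 of 30 were reduced, and the share of all miRNAs summed this way is not given here. The median log2 fold change, taken of TPM + 0.1, was -0.86 for these 32 forms and -0.37 for the 607 miRNAs. Of the 32 forms, miR-547-3p passed the minimum only through the control library and miR-201-5p only through the knockdown library, so their difference is tied to the filter. By a two-sided exact binomial test of the reads, which compares the 2 libraries and not the 2 conditions, 29 of the 34 forms were lowered at an adjusted p below 0.05, against 21.4% of all 1096 miRNAs. By the same exact test, 0 of the 34 forms were raised, against 10.7% of all miRNAs.

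Scaling changed the size of these differences. The median of all miRNAs was -0.37 with the deposited TPM and -0.12 when the libraries were scaled by the median ratio of miRNAs above the minimum in both. The median of the members minus that of all miRNAs was -0.50 with the deposited TPM. A scaling shifts the log2 ratios of all miRNAs together, so this difference is nearly fixed by construction and its value under other scalings is no sign of stability. The number of forms reduced over 1.5-fold was 18 of 32 under the median ratio, beside 31.5% of all miRNAs, and 20 of 32 under TMM (the trimmed mean of log ratios), beside 32.5%. With 1 common total for both libraries it was 31 of 31, beside 96.6% of all miRNAs, so that members did not stand out by this count. Over all miRNAs, the median ratio gave 191 reduced and 144 raised, TMM gave 192 and 141, and 1 common total gave 561 and 10.

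All 21 annotated loci of the listed hairpins lie on the minus strand of the X chromosome, outside other genes of RefSeq (GRCm38.p6) and GENCODE vM21, between the protein-coding genes Slitrk2 and Fmr1. The first block has 18 loci within 62.4 kb (chrX:66776757-66839125). The other block, with mir-201, mir-547 and mir-509, has 3 loci (chrX:67988096-68010179) and ends 668 kb before Fmr1. The blocks differed in level. The 30 forms of the first block summed to 188980 TPM in control and 111050 TPM in knockdown SPCs. All 30 were above 1.5 TPM, and 26 of them were reduced over 1.5-fold, against 41.5% of all miRNAs above that level. The 4 listed forms of the other block summed to 3.99 TPM in control and 2.82 TPM in knockdown SPCs. Only 2 of them were above 1.5 TPM. Of these, 1 was reduced over 1.5-fold, miR-547-3p with 28 and 2 reads, which is too few forms to set beside that share.

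**Figure D1:**
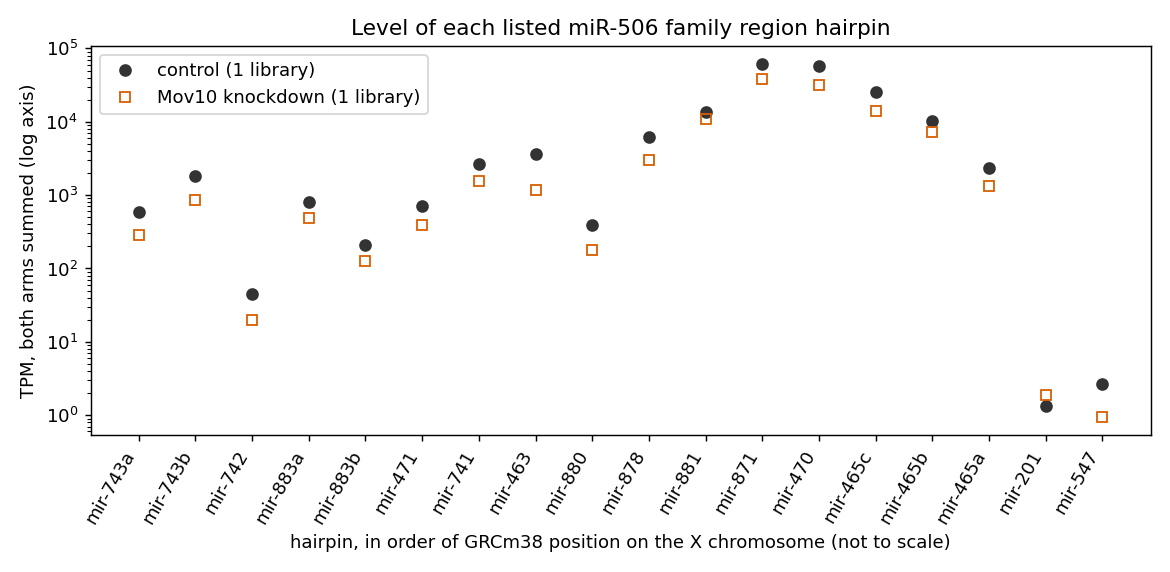
Level of each listed hairpin (vertical log axis, TPM of both arms summed) in the control library (filled circles) and the Mov10 knockdown library (open squares), in order of position on the X chromosome. Hairpins from mir-881 to mir-465b were the most abundant, mir-201 and mir-547 were the least abundant, and mir-201 was the only hairpin whose knockdown value was above its control value (1.88 against 1.33 TPM).

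Most of the reads belonged to a few strands from neighbouring hairpins. The 6 forms with the most control reads held 86.5% of member reads in control and 88.6% in knockdown SPCs. Of the 10 most abundant miRNAs, 3 were members in control and 2 in knockdown SPCs. The mature sequences of the abundant members with a seed of their own are shown with the seed in capitals, since the seed sets which transcripts a miRNA can pair with; they are from RefSeq (GRCm38.p6), which held a sequence for all 34 forms.

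miR-470-5p: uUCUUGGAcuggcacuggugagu
miR-871-3p: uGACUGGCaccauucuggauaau
miR-881-3p: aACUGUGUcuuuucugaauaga
miR-878-5p: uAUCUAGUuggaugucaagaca
miR-463-5p: uACCUAAUuuguuguccaucau
miR-741-3p: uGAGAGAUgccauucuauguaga

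miR-470-5p, from the hairpin at chrX:66813951-66814025, was the most abundant member, with 57858 TPM in control and 31691 TPM in knockdown SPCs. It ranked 2 among all miRNAs in control and 5 in knockdown SPCs, with a log2 fold change of -0.87 (95% exact interval -0.88 to -0.86). miR-871-3p, from the hairpin at chrX:66810428-66810504, had 49591 TPM in control and 28515 TPM in knockdown SPCs (log2 fold change -0.80, interval -0.81 to -0.79). Both strands were thus lower in the knockdown library by more than the median of all miRNAs, and both kept most of their share among the members. miR-470-5p made up 30.6% of member reads in control and 28.5% in knockdown SPCs. miR-871-3p made up 26.2% and 25.7%.

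miR-881-3p was the abundant member with the smallest difference, with 13487 TPM in control and 11075 TPM in knockdown SPCs. Its log2 fold change of -0.28 (-0.30 to -0.27) was closer to 0 than the median of all miRNAs, and its share of member reads was 7.14% in control and 9.97% in knockdown SPCs. Scaled by the median ratio, its log2 fold change was -0.03. miR-878-5p, whose hairpin lies 358 bases away on the same strand, had 5937 TPM in control and 2875 TPM in knockdown SPCs. Its log2 fold change was -1.05 (-1.08 to -1.01), so the intervals of these neighbours did not overlap. miR-463-5p had the largest decrease of the 8 members with the most control reads, from 3654 to 1158 TPM, with a log2 fold change of -1.66 (-1.71 to -1.61). Its share of member reads was 1.93% in control and 1.04% in knockdown SPCs. miR-741-3p had 2635 TPM in control and 1531 TPM in knockdown SPCs, a log2 fold change of -0.78 that was close to that of miR-871-3p.

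The mir-465 hairpins give 5p strands that share the seed AUUUAGA and 3p strands of 1 sequence. Counted from 1 at the 5′ end of miR-465c-5p, miR-465b-5p has the substitution C13U and miR-465a-5p has G14A and C20G, all outside the seed.

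miR-465c-5p: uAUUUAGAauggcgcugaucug
miR-465b-5p: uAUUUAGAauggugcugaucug
miR-465a-5p: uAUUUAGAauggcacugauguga
miR-465a-3p, miR-465b-3p and miR-465c-3p: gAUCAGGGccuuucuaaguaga

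miR-465c-5p had 22765 TPM in control and 12323 TPM in knockdown SPCs, a log2 fold change of -0.89 (-0.90 to -0.87). miR-465b-5p had 7211 TPM in control and 5505 TPM in knockdown SPCs, a log2 fold change of -0.39 (-0.41 to -0.37). miR-465a-5p had 873 TPM in control and 493 TPM in knockdown SPCs, a log2 fold change of -0.82 (-0.90 to -0.75). miR-465b-5p therefore differed less between the libraries than miR-465c-5p and miR-465a-5p, with intervals that did not overlap theirs. The 3p strands cannot be measured apart. Reads on the shared 3p sequence were listed as 15704 for miR-465a-3p, 31404 for miR-465b-3p and 31227 for miR-465c-3p in the control, or 15704, 15702 and 15614 reads for each annotated hairpin. In the knockdown they were listed as 2615, 5249 and 5224, or 2615, 2625 and 2612 reads for each hairpin. The listed values thus follow the number of hairpins in both libraries, and how shared reads were assigned is not stated. As 1 sequence, the 3p strand had 7448 TPM in control and 4097 TPM in knockdown SPCs, a log2 fold change of -0.86 (-0.89 to -0.84).

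Other members shared a seed in pairs. Among the 34 forms there were 27 different seeds, of which 5 occurred in 2 or more forms. The pairs are shown with the seed in capitals; miR-743a-5p shares its seed with the 5p strand of mir-871.

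miR-871-5p: uAUUCAGAuuagugccagucaug
miR-743a-5p: uAUUCAGAuuggugccugucau
miR-743a-3p: gAAAGACAccaagcugaguaga
miR-743b-3p: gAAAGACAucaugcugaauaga
miR-883a-3p: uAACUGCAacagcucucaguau
miR-883b-3p: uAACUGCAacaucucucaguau

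miR-871-5p had 12510 TPM in control and 9259 TPM in knockdown SPCs, a log2 fold change of -0.43 (-0.45 to -0.42). miR-743a-5p, with the same seed, had 178 TPM in control and 77.9 TPM in knockdown SPCs, a log2 fold change of -1.19. A shared seed therefore did not go with an equal change in this pair. miR-743b-3p had 1653 TPM in control and 725 TPM in knockdown SPCs (log2 fold change -1.19), and miR-743a-3p had 419 and 208 TPM (log2 fold change -1.01). miR-883a-3p had 754 TPM in control and 468 TPM in knockdown SPCs (log2 fold change -0.69), and miR-883b-3p, which differs from it by G12U, had 75.0 and 46.0 TPM (log2 fold change -0.70). In the mir-743 and mir-883 pairs, both 3p strands were thus lower in the knockdown library by similar amounts.

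The remaining members of the first block were less abundant. miR-880-3p had 396 TPM in control and 177 TPM in knockdown SPCs (log2 fold change -1.17). miR-471-5p had 365 and 200 TPM (-0.87), and its partner strand miR-471-3p had 339 and 193 TPM (-0.81). The strands of mir-471 were close to equal in abundance. miR-878-3p, the minor strand of its hairpin, had 216 TPM in control and 97.4 TPM in knockdown SPCs (-1.15). miR-743b-5p had 191 and 134 TPM (-0.52), just outside the 1.5-fold limit. miR-883b-5p had 136 and 79.5 TPM (-0.77). These forms were all lower in the knockdown library, by less for miR-743b-5p than for the others.

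Less abundant strands had wider intervals. miR-470-3p had 116 TPM in control and 34.4 TPM in knockdown SPCs, a log2 fold change of -1.76 (-2.05 to -1.48), which lay further from 0 than that of miR-470-5p. miR-741-5p had 58.7 and 34.4 TPM (-0.77, interval -1.07 to -0.47), and miR-883a-5p had 54.6 and 25.4 TPM (-1.10, interval -1.46 to -0.77). Both strands of mir-742 were low. miR-742-5p had 24.5 TPM in control and 11.9 TPM in knockdown SPCs (-1.04, interval -1.58 to -0.55), and miR-742-3p had 20.1 and 8.14 TPM (-1.29, interval -1.95 to -0.71). miR-463-3p had 15.1 and 9.70 TPM, just inside the 1.5-fold limit, with a log2 fold change of -0.63 that did not pass the test adjusted over all miRNAs (adjusted p = 0.077, exact binomial test). It passed when adjusted over miRNAs above 1.5 TPM (adjusted p = 0.043, exact binomial test), with 1 common total and with scaling by miRNA reads outside the members. It did not pass when scaled by own miRNA reads (log2 fold change -0.57), by the median ratio (-0.38) or by TMM (-0.42). Under these scalings miR-463-3p was also outside the 1.5-fold limit.

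The other block, nearer to Fmr1, was close to the detection floor of 3 reads (0.285 TPM in control and 0.939 TPM in knockdown SPCs). miR-547-3p had 28 reads in control and 2 in knockdown SPCs, a log2 fold change of -1.93 with an interval from -5.20 to -0.10 (adjusted p = 0.089, exact binomial test). miR-201-5p had 13 and 6 reads, a log2 fold change of 0.57 with an interval from -1.08 to 2.10 (adjusted p = 0.72, exact binomial test). The result for miR-547-3p depended on the adjustment and the scaling. With the deposited TPM it did not pass the test adjusted over all miRNAs, and it passed narrowly, just under the limit of 0.05, when adjusted over miRNAs above 1.5 TPM. It also passed with 1 common total (log2 fold change -3.25, adjusted p = 2.1e-06, exact binomial test). A change of miR-201-5p was not detectable at this depth. The last 2 forms had at most 1 read in either library, namely miR-201-3p with 1 and 0 reads and miR-547-5p with 0 and 1, and no fold change was given for them.

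**Figure D2:**
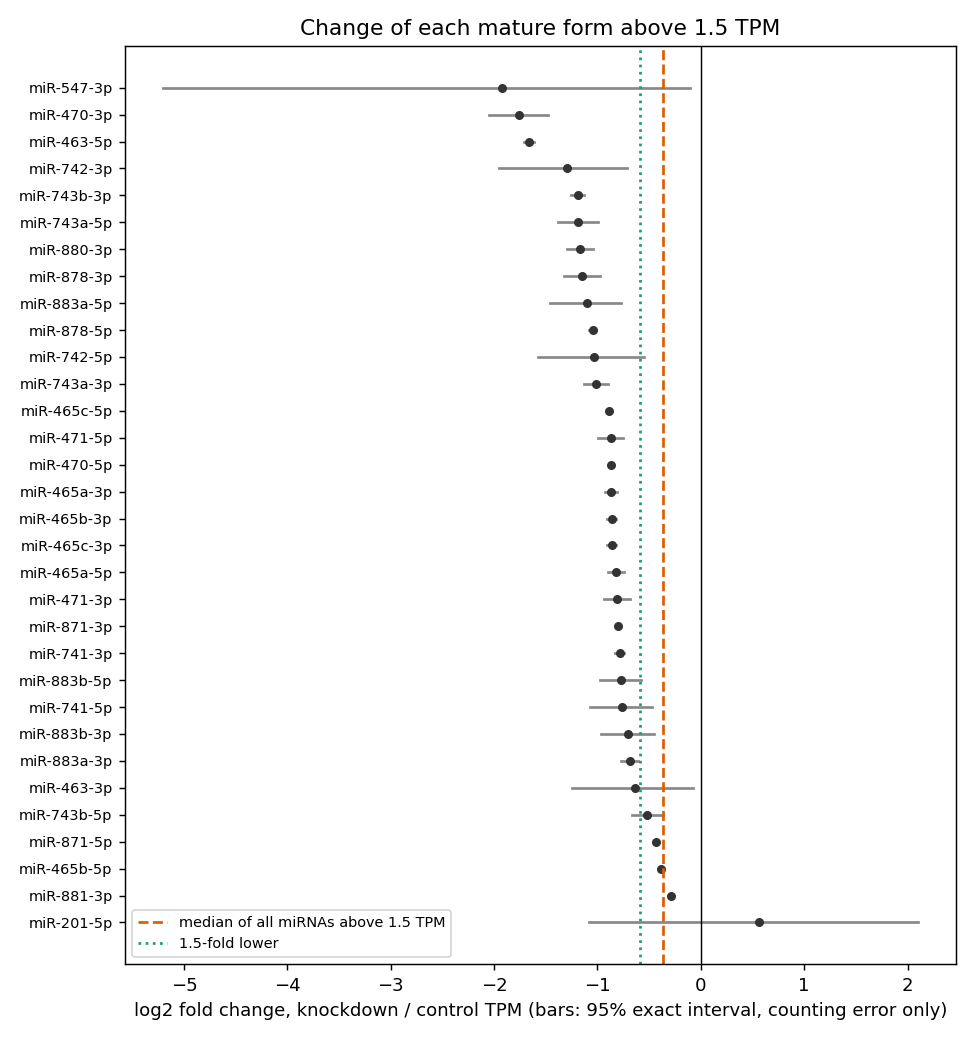
Log2 fold change (horizontal axis) of each of the 32 mature forms above 1.5 TPM in the higher library, with bars for the 95% exact interval of the read ratio. The dashed line is the median of all miRNAs above that level (-0.37) and the dotted line marks 1.5-fold lower; all points but miR-201-5p (0.57) lie below 0, and miR-881-3p, at -0.28, is the only other point right of the dashed line.

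The ranking of members was much the same in both libraries (Spearman's rho 0.99 between control and knockdown TPM across the 32 forms), and the fold change had little relation to the control level (rho 0.14) or to GC content (rho -0.27, beside -0.14 across the 492 miRNAs above the minimum with a RefSeq sequence). These are descriptions across forms that come from the same 2 libraries. A uracil stood at position 1 in 23 of the 34 forms. The forms above the minimum had a median GC content of 40.9%, beside 47.6% for all miRNAs above it with a RefSeq sequence.

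The balance between the arms of a hairpin does not depend on the library totals. Of the 16 hairpins with both arms listed, 9 gave more 5p than 3p reads in the control. The share of 5p reads differed between the libraries in 5 of 16 hairpins (Fisher's exact test, adjusted p below 0.05), against 19.3% of all hairpins tested (52 of 270), so that the count is not far from that background. For mir-871, 5p reads made up 20.1% (95% Wilson interval 20.05 to 20.24%) in the control and 24.5% (24.27 to 24.75%) in the knockdown. For mir-743b they made up 10.4% (9.95 to 10.8%) and 15.6% (14.3 to 17.0%). In both hairpins the minor 5p strand thus took a larger share in the knockdown library. For mir-465b the 5p share was 70.7% in control and 77.0% in knockdown SPCs, a comparison that rests on the shared 3p sequence. The shares of mir-470 and mir-463 differed by less than 1 percentage point. The 3p strand of mir-470 made up 0.201% in control and 0.109% in knockdown SPCs (adjusted p = 2.8e-10, Fisher's exact test). The 3p strand of mir-463 made up 0.412% and 0.831% (adjusted p = 0.0052, Fisher's exact test).

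**Figure D3:**
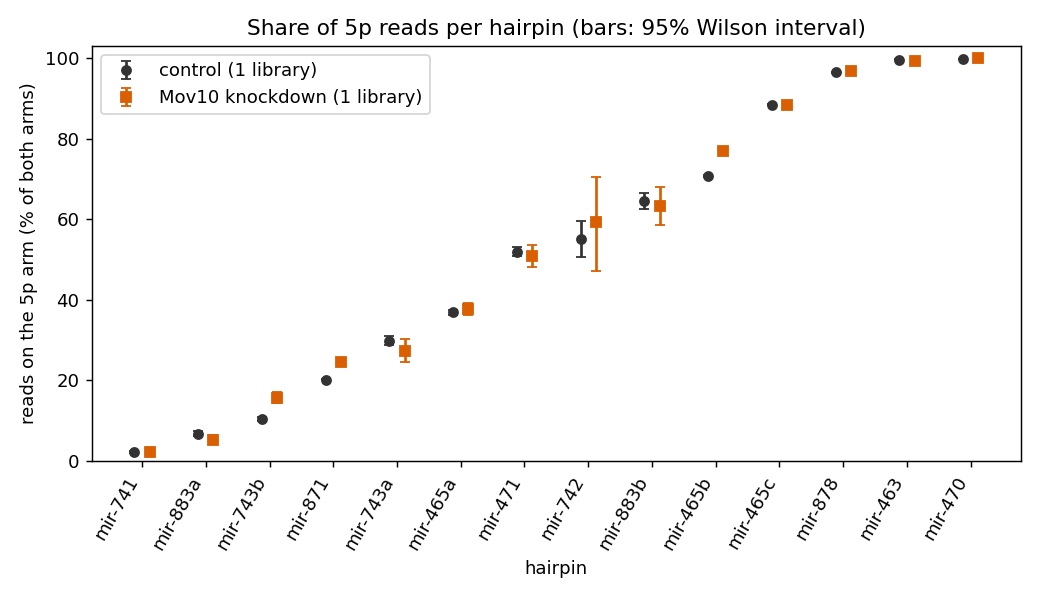
Share of reads on the 5p arm (vertical axis, percent of both arms) in the control (circles) and Mov10 knockdown (squares) libraries, for the 14 hairpins with at least 100 control reads; bars are 95% Wilson intervals. The hairpins run from mir-741 (2.18% in the control) to mir-470 (99.8%), and the shares of mir-871, mir-743b and mir-465b are visibly higher in the knockdown library.

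Other miRNAs of the X chromosome and markers of other cells were set beside the members. The 84 forms outside the members whose mature name had an X chromosome entry in RefSeq, which include both strands of mir-465d, summed to 7871 TPM in control and 10362 TPM in knockdown SPCs (log2 ratio 0.40, exact interval 0.38 to 0.42), with 14 reduced and 9 raised over 1.5-fold of 49 above the minimum and a median log2 fold change of -0.14. This list lacked 5 partner arms of its hairpins that had no mature entry, with miR-532-5p the most abundant (806 and 971 TPM). With them, added after seeing the data, 89 forms summed to 9050 and 11654 TPM (log2 ratio 0.36), with 15 reduced and 9 raised of 53 above the minimum and a median of -0.11. The higher sum rested on a few forms, while more forms were reduced than raised over 1.5-fold. Of the 3 forms with the most control reads, miR-351-5p had 2068 and 1864 TPM, miR-221-3p had 2037 and 3758 TPM, the largest difference in TPM on this list, and miR-322-5p had 810 and 1226 TPM. The mir-34 and mir-449 families, which are known from meiotic and later male germ cells, went from 9915 to 18273 TPM (log2 ratio 0.88). Most of this was miR-34c-5p (9034 and 16687 TPM). Of their 8 forms above the minimum, 4 were raised over 1.5-fold, all from mir-34 hairpins. Among these, miR-34a-3p rested on 14 and 8 reads. The mir-449 forms above the minimum, miR-449a-5p and miR-449c-5p, were not raised (log2 fold changes -0.09 and -0.42). With the common total, which compares the reads as sequenced, the sums of both of these lists were lower in the knockdown library.

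Markers of mesenchymal cells, which the feeder cells are, summed to 27675 TPM in control and 32318 TPM in knockdown SPCs (log2 ratio 0.22, exact interval 0.21 to 0.23). All 10 forms were detected, 1 was raised and 0 were reduced over 1.5-fold, and 3 had a log2 fold change below 0. Most of the sum was miR-143-3p (18362 and 20113 TPM). This sum too was lower in the knockdown library with 1 common total. Markers of early germ and pluripotent cells summed to 2106 and 1299 TPM (log2 ratio -0.70, exact interval -0.75 to -0.65), with 8 of 12 forms reduced and 0 raised over 1.5-fold and miR-292a-5p the most abundant (753 and 476 TPM). Blood cell markers summed to 277 and 134 TPM, with 2 reduced and 1 raised over 1.5-fold of 5 forms above the minimum. The control sum was mostly miR-142a-5p (158 TPM in control and 28.8 TPM in knockdown SPCs). The knockdown sum was mostly miR-155-5p (100 and 95.5 TPM, log2 fold change -0.07). Both miR-451a (11 and 1 reads) and miR-223-3p (11 and 3 reads) were near the floor. No form of these lists was at 0 in either library. The lists were compared with the members only by their levels, and their part in the lower member reads was not tested.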

How the data were processed

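Small RNA libraries of control and Mov10 knockdown SPCs were compared, 1 per group; RNA-seq and CLIP-seq libraries of the series were not analysed here. The authors filtered rRNA, trimmed adaptors and, with CLC Genomics Workbench, matched reads to miRBase allowing no mismatch. The authors deposited a read count for each mature miRNA and a TPM value, which equals the count divided by a library total (10518277 reads in control and 3194363 in knockdown SPCs, worked out here) times 1000000. Sequences and positions came from RefSeq (GRCm38.p6); the deposited values carry no coordinates.

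Log2 fold changes used TPM + 0.1, and a form was called reduced or raised when this ratio passed 1.5-fold above 1.5 TPM in the higher library. Reads of the libraries were tested per miRNA with an exact binomial test (two-sided, conditional on the library totals, Benjamini-Hochberg over all miRNAs), and arm shares by a two-sided Fisher's exact test per hairpin with at least 20 reads, at an adjusted p of 0.05. Intervals for fold changes are exact and do not use the added 0.1. TMM factors came from edgeR 4.0.16; other steps used Python 3.11.15 and scipy 1.17.1, and the tests were tried on simulated reads. Values are given for every member form with at least 10 reads in either library and for any with a fold above 1.5 and an adjusted p below 0.05, and other forms by counts; in comparison lists at most 3 are named, those with the most control reads. miR-34a-3p, miR-449a-5p, miR-449c-5p, miR-223-3p, miR-451a, miR-465d-3p, miR-465d-5p, miR-532-5p, miR-5099, miR-6538 and miR-5126 were named in addition, after their values were seen. The members and lists were chosen with earlier results of these data known. Mesenchymal markers were mir-143, mir-145a, mir-199a, mir-199b and mir-214. Early germ and pluripotent markers were mir-290a, mir-291a, mir-292a, mir-293, mir-294 and mir-295. Blood cell markers were mir-142a, mir-150, mir-155, mir-223 and mir-451a.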

Additional observations from a re-analysis of the deposited data

How the results depend on the processing

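The median log2 fold change of the members was below 0 under the 5 other scalings, the other minima and pseudocounts, and sums per hairpin or sequence. The median of all miRNAs was also below 0 under these scalings, from -0.10 with TMM to -2.07 with 1 common total. This sign therefore does not set the members apart. Their summed ratio was below 0 under the 5 scalings and without miR-470-5p. With the deposited TPM, 27 of 32 forms were reduced over 1.5-fold. This became 12 of 32 at a 2-fold limit and 15 of 18 with reads summed per hairpin, where fewer items are counted. The share of all miRNAs at a 2-fold limit, or of all hairpins, is not given here. Whether members stood out at these settings is therefore not shown. The number raised over 1.5-fold, 0, became 1 when scaled by own miRNA reads, by the median ratio or by TMM, without a minimum, with a pseudocount of 0.01 TPM, and without the 9 forms raised over 4-fold. Under the scalings this form was miR-201-5p (13 and 6 reads), and without a minimum it was miR-547-5p (0 and 1 reads). Over all miRNAs, 112 of 612 were raised when scaled by own miRNA reads, 144 of 607 by the median ratio and 141 of 591 by TMM. The median log2 fold change of -0.86 became -0.61 under the median ratio, -0.65 under TMM and -2.59 with 1 common total. The log2 ratio of the summed level, -0.77, became -0.70 with own miRNA reads, -0.51 with the median ratio, -0.55 with TMM, -2.49 with 1 common total, -0.84 with miRNA reads outside the members (chosen after seeing the data, as were sums of identical sequences and the leaving out of the 9 forms), -0.75 without the 9 forms and -0.72 without miR-470-5p. With 1 common total, miR-201-5p turned to -0.99, and the summed ratio turned to -1.50 for mesenchymal markers, -0.84 for mir-34 and mir-449 and -1.32 for other X chromosome miRNAs. Which scaling is closest to the cells was not tested. The exact binomial test was run under the 5 scalings, with adjustment over miRNAs above 1.5 TPM and with identical sequences summed, and lowered between 27 and 31 forms in these. The share of all miRNAs lowered by this test is not given for these settings. With 1 common total, 31 of 34 forms were lowered by this test. By the fold rule, which is a different measure, 96.6% of all miRNAs above 1.5 TPM were reduced at this setting. Without the share of all miRNAs by the same test, the count of 31 cannot be read as setting the members apart. Arm share differed in 4 or 5 hairpins under the other read minima and without hairpins that share a sequence, the last also chosen after seeing the data. No paired analysis was possible because there is 1 small RNA library on each side. The knockdown library is shallower, which limits forms under about 10 reads.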

Other observations

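mir-465d, which lies between mir-470 and the mir-465c hairpins but was not on the list of members, was near the floor. miR-465d-3p had 24 reads in control and 14 in knockdown SPCs, a log2 fold change of 0.91 with an exact interval from -0.12 to 1.95, and miR-465d-5p, which has the seed of the other mir-465 5p strands, had 8 and 1 reads. Its abundant neighbours on either side, mir-470 and mir-465c, had 57975 and 25734 TPM in the control.

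Other rows with 1 shared mature sequence were also listed in proportion to their hairpins. miR-199a-3p, with 2 hairpins, held 67.6% of its shared reads in control and 67.8% in knockdown SPCs, and miR-199b-3p, with 1 hairpin, held the rest.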
